A study of Mus musculus with 8 samples.

Results

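Z-discs are the protein plates that border the sarcomere, the contractile unit of striated muscle. The genes described here are 10 that encode Z-disc components or the giant filament proteins anchored there, chosen by symbol out of the 26667 genes in the counts table. They were Ttn (titin), Neb (nebulin), Actn2 and Actn3 (sarcomeric α-actinins), Myoz1, Myoz2 and Myoz3 (myozenins, also called calsarcins), Tcap (telethonin), Myot (myotilin) and Ldb3 (the PDZ and LIM domain protein also called ZASP or Cypher). All 10 were counted in every tumour and passed the filter on low counts.

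RNA-seq was carried out on undifferentiated pleomorphic sarcoma (UPS), a soft tissue sarcoma, from the hind limbs of mice of 2 genotypes, with 4 KP tumours numbered 5 to 8 and 4 KPH2 tumours numbered 1 to 4. KP mice carried Trp53 fl/fl and a further Cre-dependent allele, and KPH2 mice carried the same alleles together with Epas1 fl/fl, the conditional allele of the gene for HIF-2α. Both strains were on a mixed 129/C57BL/6 background, were of both sexes and at least 8 weeks old at injection, and received adenovirus expressing Cre recombinase (Ad-Cre) in the muscle of the right hind limb, so that both groups had the further allele, deleted Trp53 and the virus in common. Tumours were collected at a set time (7 weeks from the virus) or by a size limit, and the sources used here do not say which rule, or which sex, belongs to each library. The injected cells are those of a limb muscle, recombination is limited to cells the virus reaches, and the tumours grow among muscle fibres, so that a section can hold normal muscle as well as tumour. RNA came from fixed, paraffin-embedded sections, 1 library per tumour, with total counts from 6463221 to 13155510.

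KPH2 1 was absent from the authors' table of normalised values for 7 tumours, and the study methods describe 1 knockout tumour left out as a technical outlier. Its values are therefore given apart from comparisons of 4 KP with 3 KPH2 tumours (KPH2 2 to KPH2 4, hereafter the 7 tumours). For the 10 genes, Epas1 and the named list genes past the threshold, these are followed by comparisons over all 8. Epas1, the deleted gene, was counted between 59.2 and 86.9 CPM (counts scaled for depth and composition of the library by TMM, the trimmed mean of M-values) in KP tumours, at 53.4, 37.7 and 42.5 CPM in KPH2 2, 3 and 4, and at 32.6 CPM in KPH2 1. Every KPH2 tumour lay below every KP tumour, although the difference over the 7 tumours (log2 fold change -0.81, edgeR quasi-likelihood test, Benjamini-Hochberg adjusted p = 0.0742) did not pass the threshold of 0.05, nor did that over all 8 (-0.91, edgeR, adjusted p = 0.117). Precursor ribosomal RNA (Rn45s), which remains after depletion, took 1.08% to 2.79% of counts in KP tumours and 3.58% to 9.83% in KPH2 tumours. This separation of the groups moved with the comparison. Scaling without 4 abundant rows, Rn45s among them, gave a median log2 fold change of the 10 genes of 2.17, against 2.18 with them. Any other part of it in the results was not tested.

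Titin runs from the Z-disc to the M-band in the middle of the sarcomere and acts as its molecular spring, and nebulin lies along the thin actin filament. α-Actinins cross-link actin filaments of neighbouring sarcomeres at the Z-disc, and myozenins bind both α-actinin and the phosphatase calcineurin there. Telethonin caps the ends of titin, myotilin cross-links actin, and Ldb3 ties α-actinin to signalling proteins. In skeletal muscle, these genes are transcribed in differentiated fibres, and myogenic regulatory factors, which bind E-boxes, and MEF2 and SRF are known activators of muscle genes.

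Promoter sequence was at hand for 4 of the 10 genes (Ttn, Actn2, Myoz2 and Ldb3) in RefSeq on GRCm38.p6. The 250 bases before the transcription start of the RefSeq table are shown for Ttn, the most abundant of the genes, for Myoz2, whose fold change was the highest of the 10, and for Actn2, which came next. They are written 5′ to 3′ along the gene, with E-boxes (CANNTG, the same on both strands) in capitals. The window of Ttn is chr2:76982548-76982797, that of Myoz2 chr3:123034988-123035237 and that of Actn2 chr13:12340733-12340982, all on the minus strand. A gene can have several starts, and the last 10 bases shown for Ttn and the last 16 for Myoz2, with its E-box nearest the start, lie inside the annotated gene span, as both Ldb3 windows do in full.
Ttn: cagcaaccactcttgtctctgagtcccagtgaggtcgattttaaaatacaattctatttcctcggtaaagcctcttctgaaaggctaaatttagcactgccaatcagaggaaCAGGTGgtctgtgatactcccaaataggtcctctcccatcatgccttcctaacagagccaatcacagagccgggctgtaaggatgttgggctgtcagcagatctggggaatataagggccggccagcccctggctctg
Myoz2: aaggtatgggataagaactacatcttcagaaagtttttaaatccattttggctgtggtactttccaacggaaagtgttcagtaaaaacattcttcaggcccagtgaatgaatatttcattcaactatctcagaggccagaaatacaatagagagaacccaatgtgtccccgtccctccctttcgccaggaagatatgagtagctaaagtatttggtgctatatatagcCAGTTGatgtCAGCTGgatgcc
Actn2: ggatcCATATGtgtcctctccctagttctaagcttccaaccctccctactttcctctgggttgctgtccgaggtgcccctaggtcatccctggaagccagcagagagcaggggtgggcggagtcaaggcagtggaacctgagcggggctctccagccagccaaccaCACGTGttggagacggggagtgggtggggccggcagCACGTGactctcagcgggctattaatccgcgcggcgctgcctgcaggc
Ttn had 1 E-box, Myoz2 had 2 and Actn2 had 3, while neither of the overlapping Ldb3 windows held any. An E-box occurred in 66.2% of the 32851 promoters of this length. A match to the MEF2 motif, on either strand, was found in Ttn (starting 166 bases before the start) and in Myoz2 (33 bases before it), against 1.69% of all promoters, and a match to the SRF box was found in both Ldb3 windows, against 1.47%. The matches describe letters only, not binding.

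The comparison of KPH2 with KP tumours asks how RNA levels differ when Epas1 is deleted. Levels of all 10 genes were higher in the mean of KPH2 2 to 4 than in KP tumours, by between 1.96-fold (Myoz3) and 9.99-fold (Myoz2), with a median log2 fold change of 2.18 against -0.02 over all tested genes. Neb and Myoz2 passed an adjusted p of 0.05, which makes 2 of 10, where 1.24% of all 14867 tested genes were called higher. With an unadjusted p under 0.05, 10 of 10 were higher, against 8.5% of all genes. For 8 of the 10, each of the 3 KPH2 tumours lay above each of the 4 KP tumours, a pattern seen in 8.73% of all genes. The 10 genes shared most of their pattern from tumour to tumour, so these counts are not 10 separate observations. With KPH2 1 included, the median fell to 1.84, no member passed the adjusted threshold (0 of 10, where 0.00675% of all 14805 tested genes were called higher), and 8 of 10 had an unadjusted p under 0.05, against 6.65%. DESeq2 over the same 8 tumours called 2 of the 10, Neb and Myoz2, against 1.57% of all genes called higher. Over the 7 tumours it called 9, all but Myoz3, against 4.02%. In bulk tumour RNA, more muscle fibres in a section, more RNA per fibre and RNA of other cells, tumour cells included, cannot be told apart.

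**Figure D1:**
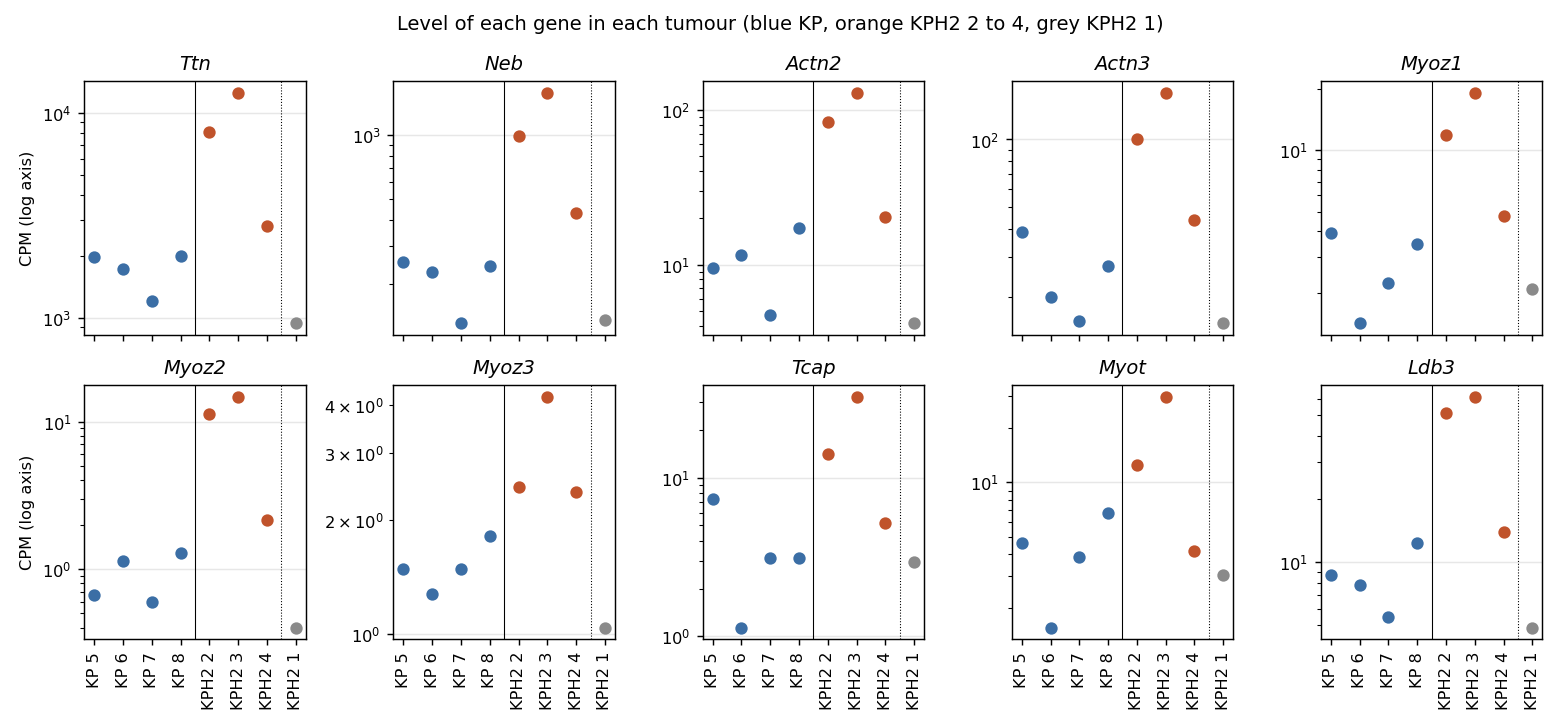
CPM of each gene (vertical log axis, a separate scale per panel) in each of the 8 tumours (horizontal axis), with KP tumours in blue, KPH2 2 to 4 in orange and KPH2 1 in grey; each point is 1 library. KPH2 3 was the highest tumour and KPH2 2 the next for all 10 genes, and KPH2 1 lay within or below the KP tumours.

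The giant proteins were the most abundant of the group. Ttn (Entrez Gene 22138; GRCm38.p6 chr2:76703980-76982557, minus strand) had levels of 1977, 1734, 1206 and 2011 CPM in KP 5, 6, 7 and 8, at 8130, 12599 and 2798 CPM in KPH2 2, 3 and 4, and at 939 CPM in KPH2 1. The 3 KPH2 tumours lay above all KP tumours, and KPH2 1 below them all. Its mean level in KP tumours was 1732 ± 372 CPM (SD, n = 4), against 7842 ± 4906 CPM (SD, n = 3) for KPH2 2 to 4, and the log2 fold change of 2.18 ± 0.45 (SE) did not pass the threshold (edgeR, adjusted p = 0.0554). Neb (Entrez Gene 17996; chr2:52136640-52338798, minus strand), which sets the length of the thin filament, was counted at 253, 228, 130 and 242 CPM in KP 5 to 8, at 994, 1589 and 432 CPM in KPH2 2 to 4, and at 135 CPM in KPH2 1. KPH2 2 to 4 were again above every KP tumour, and KPH2 1 lay between KP 7 and the others. Neb rose by 2.23 ± 0.42 (SE) on the log2 scale, a 4.71-fold difference (edgeR, adjusted p = 0.0430). With all 8 tumours, Ttn had a log2 fold change of 1.82 ± 0.68 (edgeR, adjusted p = 0.277) and Neb of 1.88 ± 0.64 (edgeR, adjusted p = 0.243). Annotated genes lie antisense to both (Gm13938 at Ttn; Gm13522 at Neb) and have no rows of their own in the table. The kit marks strand, but the strand setting of the counting is not given in the sources used here.

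Both sarcomeric α-actinins were higher in KPH2 2 to 4. Actn2 (Entrez Gene 11472; chr13:12269426-12340732, minus strand), found in all skeletal fibres and in heart, was counted at 9.43, 11.5, 4.74 and 17.2 CPM in KP 5 to 8, at 84.1, 129 and 20.4 CPM in KPH2 2 to 4, and at 4.16 CPM in KPH2 1. The lowest of the 3 KPH2 values was close to the highest KP value, while KPH2 2 and 3 were far above it. Its log2 fold change was 2.85 ± 0.61 (edgeR, adjusted p = 0.0618). Actn3 (Entrez Gene 11474; chr19:4861216-4877909, minus strand), the isoform of fast fibres, was counted at 38.9, 20.1, 15.7 and 27.5 CPM in KP 5 to 8, at 101, 161 and 44.0 CPM in KPH2 2 to 4, and at 15.3 CPM in KPH2 1. Here, too, the groups did not overlap without KPH2 1, which was lower than any KP tumour. The log2 fold change was 1.99 ± 0.45 (edgeR, adjusted p = 0.0707). With KPH2 1 included, it was 2.46 ± 0.89 for Actn2 and 1.65 ± 0.64 for Actn3 (edgeR, adjusted p = 0.270 and 0.289). Their relatives outside the sarcomere, Actn1 and Actn4, which serve the cytoskeleton of most cells, had log2 fold changes of 0.03 and 0.22. Neither relative passed the test (edgeR, adjusted p = 0.971 and 0.725).

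The myozenins held both the highest and the lowest fold change. Myoz2 (Entrez Gene 59006; chr3:123006206-123035003, minus strand), the myozenin of slow fibres and heart, was counted at 0.668, 1.13, 0.593 and 1.28 CPM in KP 5 to 8, at 11.3, 14.7 and 2.14 CPM in KPH2 2 to 4, and at 0.400 CPM in KPH2 1. The KP values rest on only 9, 8, 4 and 17 counts, and those of KPH2 2, 3 and 4 on 125, 147 and 19. Myoz2 rose by 3.32 ± 0.63 (SE) on the log2 scale (edgeR, adjusted p = 0.0418), with every one of KPH2 2 to 4 above every KP tumour, and its log2 fold change was 2.93 ± 0.95 with KPH2 1 included (edgeR, adjusted p = 0.231). Myoz1 (Entrez Gene 59011; chr14:20649102-20656540), the myozenin of fast fibres, was counted at 3.94, 1.41, 2.22 and 3.47 CPM in KP 5 to 8, at 11.9, 19.1 and 4.73 CPM in KPH2 2 to 4, and at 2.08 CPM in KPH2 1. KPH2 4 was only slightly above KP 5. The log2 fold change of Myoz1 was 2.07 ± 0.50 (edgeR, adjusted p = 0.0778). Myoz3 (Entrez Gene 170947), also of fast fibres, had the lowest fold change of the 10, with 1.49, 1.27, 1.48 and 1.81 CPM in KP 5 to 8, 2.43, 4.20 and 2.37 CPM in KPH2 2 to 4, and 1.04 CPM in KPH2 1. The groups stood apart by a small margin without KPH2 1, on counts of 9 to 42 in all 8 tumours. Its log2 fold change of 0.97 ± 0.34 did not pass the test (edgeR, adjusted p = 0.193). In all 8 tumours, Myoz1 had a log2 fold change of 1.74 ± 0.65 and Myoz3 of 0.71 ± 0.42 (edgeR, adjusted p = 0.277 and 0.466).

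Among the adaptors and cross-linkers, Tcap and Myot showed the widest spread of the 10 genes among KP tumours. Tcap (Entrez Gene 21393; chr11:98383811-98384953) was counted at 7.35, 1.13, 3.11 and 3.09 CPM in KP 5 to 8, at 14.1, 32.2 and 5.18 CPM in KPH2 2 to 4, and at 2.96 CPM in KPH2 1. KP 5 exceeded KPH2 4, so the groups overlapped, and the highest KP value was 6.50 times the lowest. The lowest, in KP 6, rests on 8 counts. Tcap had a log2 fold change of 2.19 ± 0.70 (edgeR, adjusted p = 0.155), which was 1.37 without KPH2 3 and 2.80 without KP 5. Myot (Entrez Gene 58916) was counted at 4.60, 1.56, 3.85 and 6.79 CPM in KP 5 to 8, at 12.4, 29.8 and 4.17 CPM in KPH2 2 to 4, and at 3.04 CPM in KPH2 1. KPH2 4 lay below KP 5 and KP 8. The log2 fold change of Myot was 1.85 ± 0.66 (edgeR, adjusted p = 0.196), and 0.96 without KPH2 3. Ldb3 (Entrez Gene 24131; chr14:34526699-34590314, minus strand) was counted at 8.69, 7.78, 5.49 and 12.3 CPM in KP 5 to 8, at 51.3, 61.1 and 14.0 CPM in KPH2 2 to 4, and at 4.88 CPM in KPH2 1. KPH2 2 to 4 did not overlap with KP tumours, while KPH2 1 lay below them. Ldb3 had a log2 fold change of 2.28 ± 0.48 (edgeR, adjusted p = 0.0594). For all 8 tumours together, the values were 1.86 ± 0.79 for Tcap, 1.53 ± 0.74 for Myot and 1.93 ± 0.70 for Ldb3 (edgeR, adjusted p = 0.323, 0.373 and 0.270).

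**Figure D2:**
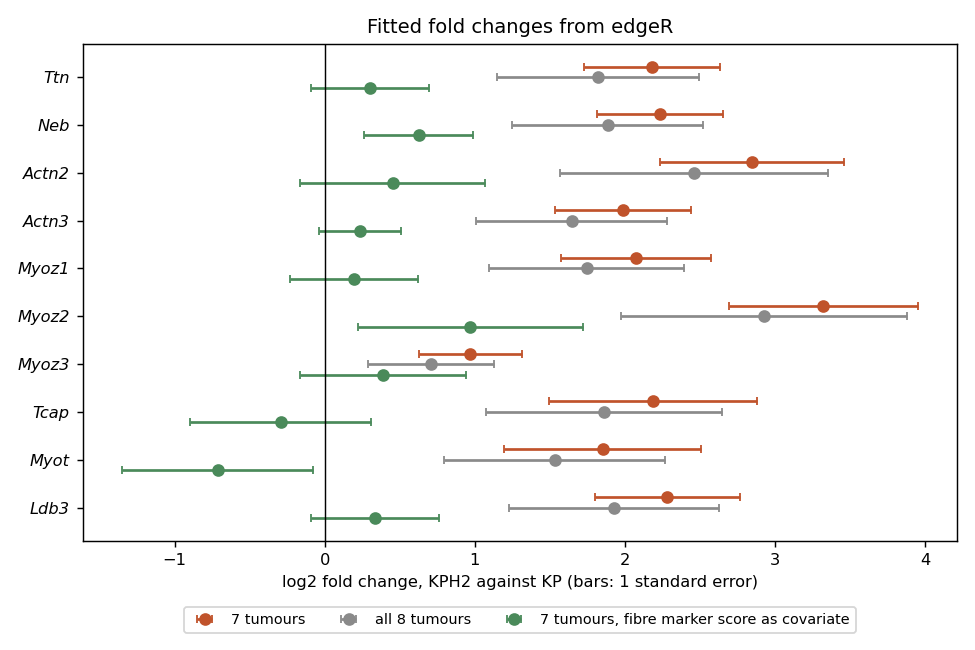
Log2 fold change of KPH2 against KP tumours from edgeR (horizontal axis; points, with bars of 1 standard error) for each gene (vertical axis), over the 7 tumours (orange), over all 8 (grey) and over the 7 with a fibre marker score as a covariate (green). Over the 7 tumours, values ran from 0.97 (Myoz3) to 3.32 (Myoz2), and with the covariate from -0.71 (Myot) to 0.97 (Myoz2). The covariate itself was higher in each of KPH2 2 to 4 than in every KP tumour, so the fit cannot separate it from genotype.

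The KPH2 tumours kept the same order among themselves for each gene, while the order of the KP tumours changed from gene to gene. KPH2 3 was the highest and KPH2 2 the second for 10 of 10, KPH2 4 was above all KP tumours for 8 of 10, and KPH2 1 was below all of them for 6 of 10. Leaving out KPH2 3 or KPH2 4 moved the median most. Without KPH2 3, the median log2 fold change fell from 2.18 to 1.61 and no member passed the threshold (0.718% of all genes were then called higher). Without KPH2 4 it was 2.59 and 7 members passed (Ttn, Neb, Actn2, Actn3, Myoz1, Myoz2 and Ldb3), against 0.807% of all genes. Leaving out any other single tumour of the 7 also left no member past it, so that the calls of Neb and Myoz2 each rested on all tumours but KPH2 4. The median was 2.04 to 2.30 in these fits. Over all genes, 183 of 14554 were then called higher without KP 5, 90 of 14889 without KP 6 and 47 of 14960 without KP 7. Without KP 8 it was 76 of 14592, and without KPH2 2 it was 43 of 15187. In an exact permutation test (2-sided, on log2 CPM), the 8 genes whose groups did not overlap reached p = 0.0286, the smallest that the 35 splits of 4 against 3 allow, while Tcap gave p = 0.0857 and Myot p = 0.171. Groups that do not overlap nearly fix this smallest value, so it restates the lack of overlap and adds no support. Over all 8 tumours, the exact permutation p ran from 0.143 (Neb and Myoz1) to 0.257 (Myoz3 and Myot).

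Levels per length allow the genes to be compared with each other. They were computed as CPM per kb of annotated exon (GENCODE M21, another annotation than that used for counting), where Ttn has 113.588 kb and Tcap 0.948 kb. In KP tumours, Ttn was highest, with a mean level of 15.2 CPM per kb, followed by Neb (8.88) and Actn3 (8.85). Ttn was above Neb in 8 of 8 tumours, but Neb was above Actn3 in only 6, so that the order of Neb and Actn3 was within the spread. Tcap (3.87 CPM per kb) and Actn2 (3.55) came next and were not ordered, with Tcap the higher in 3 of 8 tumours. Myoz1 (2.14 CPM per kb), Myot (1.90) and Ldb3 (1.40) followed, and each was above the next in 5 or 6 of 8 tumours only. Myoz2 (0.778 CPM per kb) and Myoz3 (0.440) were lowest in KP tumours, with Myoz2 above Myoz3 in 8 of 8. In KPH2 2 to 4, Ttn again led with a mean of 69.0 CPM per kb, ahead of Neb (41.8) and Actn3 (35.4). Myoz2 stood at 7.93 CPM per kb there, the seventh level of the 10 in place of the ninth, and Myoz3 remained lowest at 0.873.

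**Figure D3:**
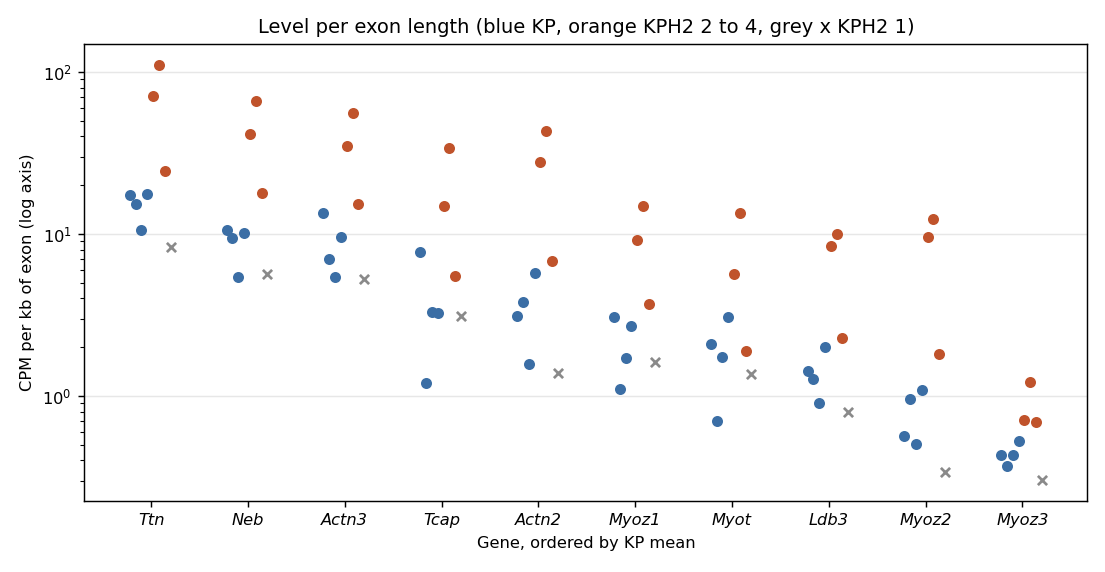
CPM per kb of exon (vertical log axis) for each gene (horizontal axis, ordered by the KP mean), with 1 point per tumour (blue, KP; orange, KPH2 2 to 4; grey cross, KPH2 1). The giant proteins and Actn3 were highest, and Myoz3 was lowest in both groups.

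Within a tumour, 3 pairs were compared to see whether the makeup of the Z-disc differed between the groups. The difference Myoz2 minus Myoz1, slow against fast myozenin, was -2.26, -0.28, -1.62 and -1.31 in log2 CPM in KP 5 to 8, -0.08, -0.37 and -1.08 in KPH2 2 to 4, and -1.94 in KPH2 1. It was higher in KPH2 2 to 4 by 0.86 on average, with overlapping groups (exact permutation p = 0.171, 0.257 after Benjamini-Hochberg adjustment over the 3 pairs). The difference Actn2 minus Actn3 was -1.29 ± 0.66 for KP (SD, n = 4) against -0.56 ± 0.47 for KPH2 2 to 4 (SD, n = 3), with the same exact permutation p of 0.171. Neb minus Ttn varied least, with -3.04 ± 0.13 for KP (SD, n = 4) against -2.90 ± 0.18 for KPH2 2 to 4 (SD, n = 3; exact permutation p = 0.371). None of the 3 differed beyond the spread between tumours, which does not show that the ratios were equal, and over all 8 tumours the exact permutation p was 0.2 or higher.

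Other sarcomere genes were higher together with these 10. Of 55 on lists drawn by role, 54 were tested, 51 were higher and 3 lower in KPH2 2 to 4, and 36 were higher at an unadjusted p under 0.05, with a median log2 fold change of 1.79. Past the adjusted threshold were Ankrd1 (log2 fold change 1.59, edgeR, adjusted p = 0.0293), a stress-responsive ankyrin repeat protein that binds titin, and Lmod2 (2.74, edgeR, adjusted p = 0.0400), a leiomodin that nucleates actin at thin filaments. Neither call held with KPH2 1 included (log2 fold changes of 1.26 and 2.42, edgeR, adjusted p = 0.303 and 0.180). By role, the median log2 fold change was 2.47 for thin filament genes (12 of 12 higher), 2.36 for thick filament genes (12 of 12), 2.11 for M-band genes (3 of 3), 1.54 for titin-binding signalling proteins (8 of 8) and 0.61 for Z-disc partners (16 of 19). The Z-disc partners, many of which serve other cells as well, thus had a lower median than the 10 genes they join in the Z-disc. The 3 lower genes, named after their values were seen, were Pdlim5, Nebl and Bag3, with log2 fold changes of -0.53, -0.37 and -0.34, and none passed the test (edgeR, adjusted p = 0.182, 0.745 and 0.559).

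Markers of muscle fibres outside the sarcomere moved with the 10 genes. A list of 18 (among them Ckm, Atp2a1, Ryr1 and Eno3), which encode enzymes, calcium channels and pumps of the fibre, was higher for 18 of 18 in KPH2 2 to 4, with a median log2 fold change of 1.99, although only Eno3, the muscle enolase, passed the test (2.98, edgeR, adjusted p = 0.0092), and not over all 8 tumours (2.62, edgeR, adjusted p = 0.159). Summed CPM of the list ran from 179.8 to 371 in KP tumours, was 1184, 1797 and 453 in KPH2 2, 3 and 4, and was 164 in KPH2 1, the same order of KPH2 tumours as for Ttn. Relative to the mean log2 CPM of the 18 markers, Ttn was at 7.43, 8.15, 7.64 and 7.74 in KP 5 to 8 and at 7.86, 7.87 and 7.90 in KPH2 2 to 4. The groups overlapped on this scale for 10 of 10 genes. The mean difference of KPH2 2 to 4 from KP ran from -0.95 (Myoz3) to 0.96 (Myoz2), and the lowest exact permutation p was 0.0857 (Myoz2). With the marker score as a covariate in edgeR, log2 fold changes ran from -0.71 (Myot) to 0.97 (Myoz2), Tcap (-0.29) and Myot changed sign, no member had an unadjusted p under 0.05 (0 of 10, where 8.01% of all genes did in either direction), and the smallest adjusted p was 0.775 (Neb).

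**Figure D4:**
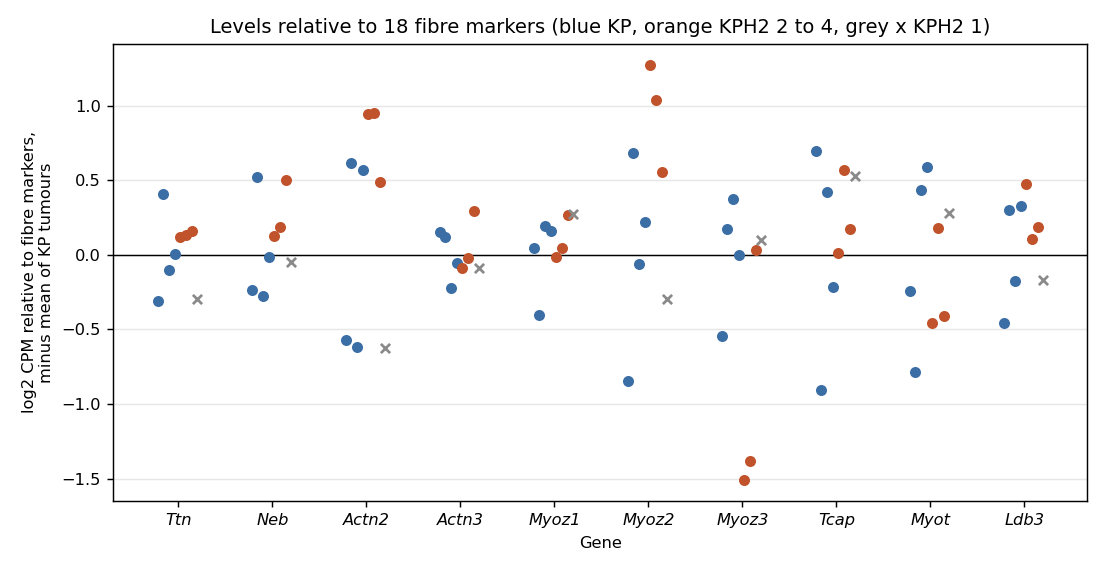
Log2 CPM of each gene minus the mean log2 CPM of the 18 fibre markers (vertical axis), centred on the mean of KP tumours, for each gene (horizontal axis), with 1 point per tumour (blue, KP; orange, KPH2 2 to 4; grey cross, KPH2 1). The groups overlapped for all 10 genes, with KPH2 2 to 4 between 0.12 and 0.16 above the KP mean for Ttn.

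Markers of other cells were also counted. Of 7 myoblast and satellite cell markers, 6 were tested and were higher, with a median log2 fold change of 3.77, and Myf5, a myogenic regulatory factor of early myoblasts, passed the test (5.59, edgeR, adjusted p = 0.0418), and not over all 8 tumours (5.14, edgeR, adjusted p = 0.220). Summed CPM of the 7 was 36.2 to 115 in KP tumours, 169 to 413 in KPH2 2 to 4 and 31.6 in KPH2 1. In KP tumours and KPH2 1, most of the sum was Chrna1, at 31.3, 66.5, 115 and 92.4 CPM in KP 5 to 8 and 30.6 CPM in KPH2 1. Chrna1 stood at 253, 129 and 113 CPM in KPH2 2 to 4. The part of these markers in the levels of the 10 genes was not tested. Of 6 heart markers, Myh6, a cardiac myosin, and Myl7, the atrial light chain, were at or below 0.180 CPM in every tumour, and Nppa, an atrial hormone, was at or below 1.78 CPM. The other 3 were tested and none passed the adjusted threshold: Tnni3 and Ryr2 had log2 fold changes of -0.05 and -1.14, while Tnnt2, a troponin T that embryonic skeletal muscle also uses, was at 0.830 to 11.9 CPM in KP tumours, at 18.1 to 68.8 CPM in KPH2 2 to 4 and at 0.799 CPM in KPH2 1 (log2 fold change 3.73, edgeR, adjusted p = 0.0848). Summed CPM of the heart list was 3.77 to 15.6 in KP tumours, 22.3 to 71.7 in KPH2 2 to 4 and 5.59 in KPH2 1, most of it Tnnt2 in KPH2 2 to 4, and its part in the levels of the 10 genes was not tested. Macrophage markers (5 of 5; summed CPM 851 to 1369 in KP and 575 to 918 in KPH2 2 to 4), endothelial markers (4 of 4; 212 to 406 and 184 to 209) and smooth muscle and pericyte markers (5 of 5; 221 to 663 and 147 to 554) had lower fitted levels in KPH2 2 to 4, with summed ranges that overlapped except for the endothelial list. KPH2 1 was at 698, 161 and 78.8 CPM in that order, below every KP tumour. Of these 14 genes only Cnn1, calponin of smooth muscle, passed the test (-3.69, edgeR, adjusted p = 0.0491). Mesenchymal markers were lower for 4 of 5, with Pdgfra, a receptor of fibroblasts, past the threshold (-2.02, edgeR, adjusted p = 0.0183). Over all 8 tumours, Cnn1 (-3.93) and Pdgfra (-1.54) did not pass (edgeR, adjusted p = 0.102 and 0.160). Summed CPM of mesenchymal markers ran from 10374 to 17568 in KP tumours, from 8160 to 13446 in KPH2 2 to 4, and was 8468 in KPH2 1. None of 4 adipocyte markers passed the filter on low counts.

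**Figure D5:**
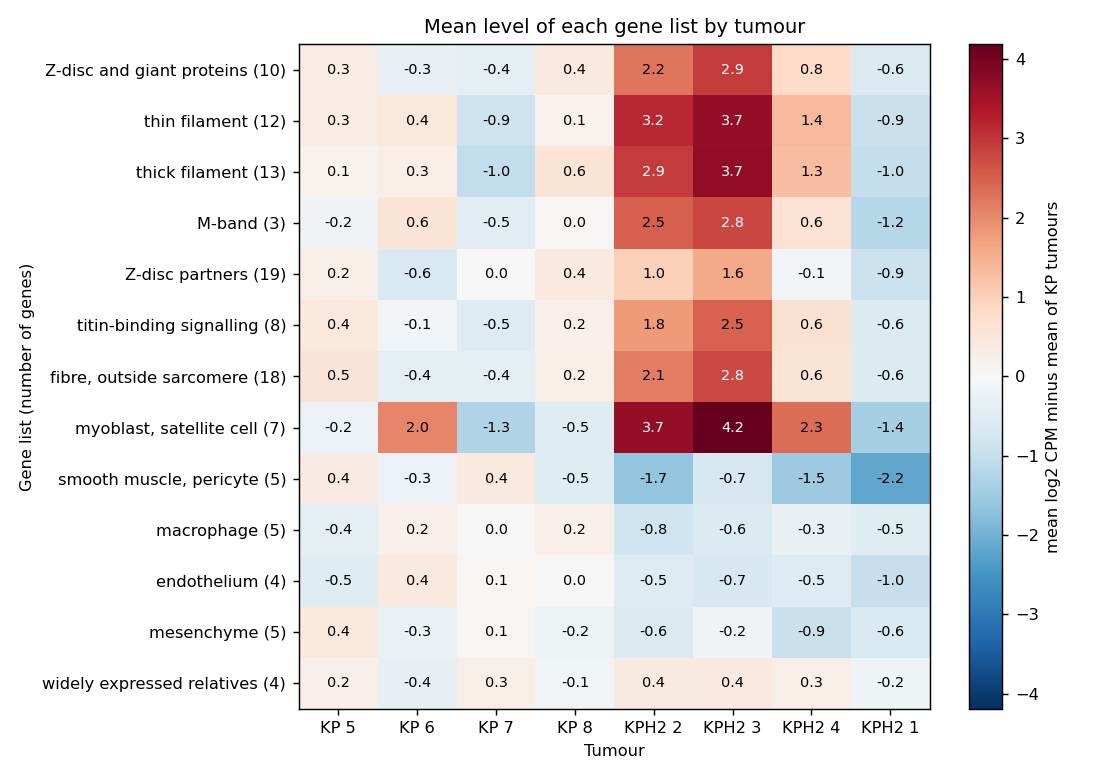
Mean log2 CPM of each gene list (rows; number of genes in brackets) in each tumour (columns), as the difference from the mean of KP tumours, printed in each cell and coloured on a scale from blue (lower) to red (higher). The 10 genes stood 2.23, 2.94 and 0.79 above the KP mean in KPH2 2, 3 and 4 and 0.60 below it in KPH2 1, close to the fibre markers outside the sarcomere.

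Outside all lists, the 5 genes whose profile over the 8 tumours was nearest to the mean profile of the 10, out of 14690 compared, included Alpk3, Scn4a, Apobec2 and Ppp1r3a. The root mean square differences of these 4 from it ranged from 0.309 to 0.357 in log2 CPM. Among the 10 genes themselves, this distance was 0.16 for Ttn, 0.20 for Actn3 and Ldb3, 0.22 for Neb and 0.24 for Myoz1. It was 0.48 for Myot, 0.56 for Actn2, Myoz2 and Tcap, and 0.71 for Myoz3. The mean profile includes these 10 genes, which lowers their distances from it, so they cannot be ranked against the genes outside the lists. These distances describe 8 libraries and carry no test.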

How the data were processed

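RNA from 8 UPS tumours, 4 KP and 4 KPH2, was depleted of ribosomal RNA (Ribo-Zero Gold) and sequenced from TruSeq stranded libraries. The authors aligned reads to GRCm38 with STAR 2.4 and deposited raw counts per RefSeq gene from htseq-count 0.6.1 (HTSeq), not normalised. Tables of log2 values from DESeq2 1.6 (regularized log), which the authors deposited over 7 and over 8 tumours, were used here to learn which tumour was left out and, over 7 tumours, as an alternative for pair differences. The study gives the 7 tumours differently in its Results and its Methods, and the Methods were followed.

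Counts of all genes were fitted in R 4.3.3 with edgeR 4.0.16 (TMM, minimum count 10, minimum total count 15, robust quasi-likelihood test, no covariate), with p-values adjusted by Benjamini-Hochberg over the whole table and a threshold of 0.05. CPM are on 1 TMM scale over all 8 tumours, and log2 CPM use a prior count of 2. Fitted fold changes are edgeR's. Depth limits the low genes: the lowest count in a tumour was 4 for Myoz2, 8 for Tcap, 9 for Myoz3, 10 for Myoz1 and 11 for Myot. The labels do not tie tumours to litters, so p-values measure the spread between these tumours.

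Genes named were the 10, list genes past the threshold or defining a cell type, Epas1, and the 5 nearest in profile; some items that this rule names, and 1 allele, are not reported here. The members and lists were chosen with earlier results of these data known. Alternatives were all 8 tumours, other normalizations and filters, leaving out each tumour, the fibre marker score as a term in the fit, quasi-likelihood without the robust option, a prior count of 0.5 and the deposited rlog values for pair differences, and DESeq2 1.42.0. DESeq2 over all 8 tumours and scaling without 4 abundant rows were added after seeing the data. The code was tested on simulated data.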

Additional observations from a re-analysis of the deposited data

Results flagged for a closer look

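Neb in KP 7 stood apart from the other KP tumours, at 7.02 log2 CPM, with a gap to the nearest of the others of 0.844 of the range of the 4, above Dixon's critical value for 4 samples. Of 26 groups of values examined, chance flags about 1 in 20. Without KP 7, the log2 fold change of Neb was 2.06 in place of 2.23, and it no longer passed the threshold (edgeR, adjusted p = 0.0919).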

How the results depend on the processing

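Over the 7 tumours, 2 of the 10 genes passed the threshold by edgeR. The number was 2 with DESeq2's size factors, upper-quartile normalization, no filter on low counts or scaling without 4 abundant rows, 3 without robust estimates (Ttn in addition), 1 with a mean count of at least 50 (8 tested, without Myoz2 and Myoz3), 0 over all 8 tumours, 0 with the fibre marker score as a covariate, 9 by DESeq2 (all but Myoz3) and 2 by DESeq2 over all 8 tumours, and it ran from 0 to 7 when 1 tumour was left out. Over all genes, 292 of 14867 were called in either direction, 185 of them higher in KPH2 2 to 4. The number was 286 with DESeq2's size factors, 293 with upper-quartile normalization and 338 of 21792 with no filter. Scaling without 4 abundant rows gave 289, no robust estimates 311, and a mean count of at least 50 gave 215 of 11830. It was 1 over all 8 tumours, 4 with the covariate, 1179 by DESeq2, 610 by DESeq2 over all 8 tumours and 55 to 349 with 1 tumour left out. For other sarcomere genes, 2 were called, against 0 over all 8 tumours, 0 with the covariate, 25 by DESeq2, 4 by DESeq2 over all 8 tumours and 0 to 11 with 1 tumour left out. Log2 fold changes of the 10 genes kept their direction except with the covariate, where Tcap was at -0.2932 and Myot at -0.7134. The cause was not tested. The 3 pair differences kept their direction under each alternative run, and stayed short of the threshold over all 8 tumours, with DESeq2's size factors, with a prior count of 0.5 and on the deposited rlog values of 7 tumours. With 1 tumour left out they were values with no test. No paired analysis was possible because the groups share no replicate numbers. Depth limits the levels of Myoz1, Myoz2, Myoz3, Tcap and Myot. For all of the 10 genes but Myoz3, 3 KPH2 tumours that differ several-fold limit the precision of the fold change.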

Other observations

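Myh3, Myh8 and Actc1, chosen after their values were seen, had their highest KP level in KP 6. Myh3, the embryonic myosin, stood at 58.3 CPM in KP 6 against 5.87, 0.445 and 1.58 CPM in KP 5, 7 and 8. In KPH2 2, 3 and 4 it stood at 401, 647 and 109 CPM, and in KPH2 1 at 1.28 CPM. Myh8, the perinatal myosin, was at 15.7 CPM in KP 6 and at or below 0.755 CPM in the other KP tumours, and Actc1, the cardiac actin that fetal skeletal muscle also uses, was at 20.2 CPM in KP 6 and at or below 1.49 CPM in the others. In KPH2 1, Myh8 was at 0.559 CPM and Actc1 had 0 counts, which by counting error alone allows up to 3. In KP 6, Ttn was at 1734 CPM, within the range of the other KP tumours, Myoz1, Tcap and Myot were at their lowest of all 8 tumours, Myoz3 was at its lowest KP level, and Actn2 (11.5 CPM) and Myoz2 (1.13 CPM) were at the second highest KP level. Over the 7 tumours, the log2 fold changes of Myh3 (4.57), Myh8 (4.20) and Actc1 (4.56) did not pass the threshold (edgeR, adjusted p = 0.137, 0.144 and 0.131).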
